A study of Mus musculus with 4 samples.

Results

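The activity genes described here are Egr1, Egr2, Egr3, Egr4, Nr4a1, Nr4a2, Nr4a3, Npas4 and Arc, 9 of the 20655 gene names measured in mouse prefrontal cortex. They were taken by name, as every non-control probe whose gene name in the scanner files was one of these symbols, which gave 14 of 56605 probes. All 14 were well above background on all 4 arrays. The set was chosen by name with the diet contrast of these same arrays in view, in which several of its genes had lower signal on sucrose, so their diet differences are given as a description and no test of them was made.

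The study crossed diet with genotype in B6J mice aged 3 months. The diet, based on starch or on sucrose, was fed from postnatal day 21 for about 70 days, and mice were wild-type or heterozygous for Glo1, which encodes the methylglyoxal-detoxifying enzyme glyoxalase 1. The 4 groups were wild-type on starch (the control), wild-type on sucrose, Glo1 heterozygous on starch and Glo1 heterozygous on sucrose. All mice shared the strain, the age and the way the prefrontal cortex was taken, which was right after cervical dislocation and decapitation. RNA of 3 mice per group was mixed before labelling, and each mixture was hybridised to 1 one-colour Agilent array. Each group is therefore a single measurement of a pool: the spread between mice cannot be seen, and no difference between groups has an error or a p-value. The 4 arrays lay on 1 slide, so position on the slide and group cannot be told apart.

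These genes are immediate early genes of neurons, transcribed within minutes of synaptic activity from promoters that are already primed. The Egr proteins are zinc finger transcription factors that bind GC-rich sites, the Nr4a proteins are orphan nuclear receptors, and Npas4 is a basic helix-loop-helix PAS factor that responds to calcium entry in particular. Arc is not a transcription factor but a postsynaptic protein that promotes the removal of AMPA receptors from synapses. Their transcripts are short-lived, so their level in cortex follows recent activity.

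Promoter sequences of 6 of the 9 genes were searched for motifs. Calcium and kinase signals reach such genes through CREB, which binds the cAMP response element (CRE), and through serum response factor, which binds the CArG box. RefSeq promoter windows (build GRCm38.p6) were used for 6 of the 9 genes, and the 250 bases before each transcript start were searched. Egr3 and Arc had no window. Egr1 was left out by a filter on the windows, not for lack of a match, so its promoter was not searched. The 5 below are shown because 4 belong to genes that were lower on sucrose on both pairs of arrays and the last, Nr4a2, to one that was not. Capitals mark matches to the CRE half-site (CGTCA, or TGACG for the other strand), the CArG box or the Egr site (GCGNGGGCG, both strands).
Egr2, chr10:67537619-67537868, + strand: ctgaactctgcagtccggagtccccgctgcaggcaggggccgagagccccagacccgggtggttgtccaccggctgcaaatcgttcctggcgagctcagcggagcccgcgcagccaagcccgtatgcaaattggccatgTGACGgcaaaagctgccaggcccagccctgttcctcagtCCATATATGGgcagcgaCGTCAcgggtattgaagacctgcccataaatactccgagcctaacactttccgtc
Egr4, chr6:85513590-85513839, - strand: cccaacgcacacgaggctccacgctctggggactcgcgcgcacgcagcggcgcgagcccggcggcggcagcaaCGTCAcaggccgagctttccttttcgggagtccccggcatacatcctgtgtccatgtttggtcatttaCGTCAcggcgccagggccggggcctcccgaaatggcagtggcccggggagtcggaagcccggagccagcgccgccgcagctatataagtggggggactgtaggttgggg
Npas4, chr19:4989972-4990221, - strand: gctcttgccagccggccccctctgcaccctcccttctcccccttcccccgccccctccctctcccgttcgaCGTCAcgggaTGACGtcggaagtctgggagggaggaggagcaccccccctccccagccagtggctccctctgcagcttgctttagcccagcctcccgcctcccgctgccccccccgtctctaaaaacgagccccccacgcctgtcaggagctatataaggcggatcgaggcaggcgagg
Nr4a1, chr15:101266596-101266845, + strand: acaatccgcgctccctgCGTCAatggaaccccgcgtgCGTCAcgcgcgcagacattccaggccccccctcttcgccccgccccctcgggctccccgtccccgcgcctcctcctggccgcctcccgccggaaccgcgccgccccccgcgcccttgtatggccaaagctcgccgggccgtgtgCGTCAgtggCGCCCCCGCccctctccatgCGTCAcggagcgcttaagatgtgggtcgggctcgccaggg
Nr4a2, chr2:57124004-57124253, - strand: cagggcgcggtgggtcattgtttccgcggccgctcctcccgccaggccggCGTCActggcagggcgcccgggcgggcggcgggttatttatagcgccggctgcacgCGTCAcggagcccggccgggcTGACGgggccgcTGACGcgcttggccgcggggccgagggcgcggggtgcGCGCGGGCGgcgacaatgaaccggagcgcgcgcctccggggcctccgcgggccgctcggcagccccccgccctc

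Every printed window held at least 2 CRE half-sites, a feature of 3.9% of the 32851 windows in the table (17.8% held 1 or more). Egr2 had 2 half-sites and a CArG box between them, 72 to 63 bases before the start; 1.47% of all windows held a CArG box. For Egr2 the table gave 5 windows, of which the third is printed, chosen for its matches; windows 4 and 5 overlap it, the second held 1 CArG box and no half-site, and the first held no match. Egr4 and Npas4 had 2 half-sites each, and those of Npas4 lay close together, beginning at bases -179 and -169 from the start. Nr4a1 had 4 half-sites and an Egr site, which 4.7% of windows held. Nr4a2 also had 4 half-sites and an Egr site, and Nr4a3, whose window is not printed, had 4 half-sites. The number of matches thus did not separate the genes that were lower on sucrose from Nr4a2 and Nr4a3. No window of the 6 genes held the complete element TGACGTCA (1.55% of all windows), or the Nr4a element AAAGGTCA on either strand (1.34%).

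**Figure D1:**
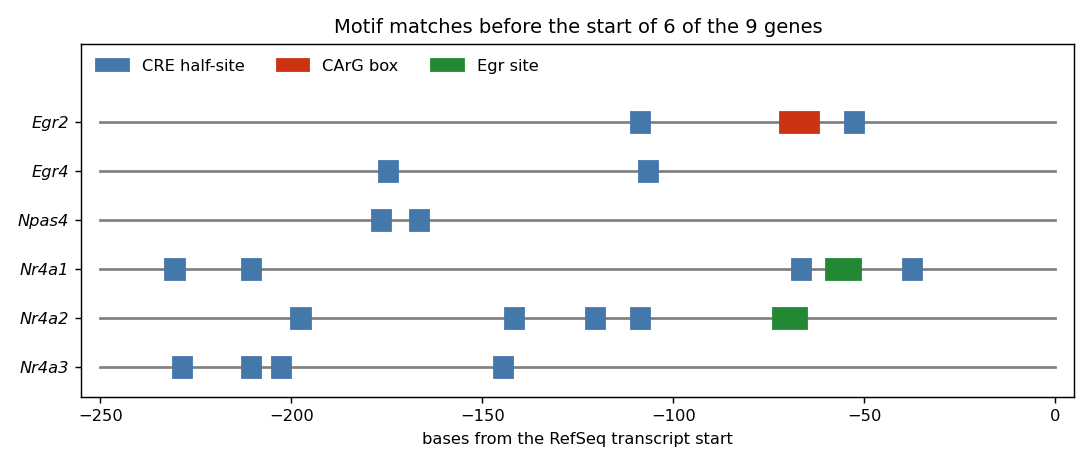
Motif matches (coloured boxes) in the 250 bases before the RefSeq transcript start of 6 of the 9 genes, with the distance from the start in bases on the horizontal axis. Each window drawn has 2 to 4 CRE half-sites, Egr2 alone of the 6 has a CArG box, and Nr4a1 and Nr4a2 each have an Egr site. For Egr2 the third of 5 windows is drawn, chosen for its matches.

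The arrays were alike in overall signal. Of the 59305 spots that are no controls, 77.6% to 80.2% exceeded background clearly, no spot was saturated, and the 75th percentile of the signal ran from 1780 to 1929 intensity units. Levels below are multiples of that percentile on the same array, and changes are differences of their log2 values. Glo1 was lower on both heterozygous arrays, at 67.7% of the wild-type level on starch and 55.0% on sucrose for its brightest probe. All 6 pan-neuronal and all 9 cortical excitatory neuron markers were well above background on every array, but so were the 11 striatal and 7 choroid plexus markers measured, so presence alone does not check the cortex label; their levels are given further on. As a guide to technical error, 300 probes were printed 10 times on each array. For a log2 difference between arrays, each read from 1 spot, they predict an SD of 0.07 at signals in the brightest quartile, where 7 of the 9 genes lay, of 0.12 in the next quartile (5 repeated probes) and of 0.13 in the one below (3 repeated probes). This covers spotting and scanning only, not the mice, the pooling or the labelling.

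In wild-type mice 8 of the 9 genes were lower on sucrose than on starch. The count was also 8 of 9 in heterozygous mice, and 7 genes were lower in both genotypes. Over all 20655 genes, the shares were 50.1% and 49.9%, with 30.2% lower in both. The median change of the 9 genes was -0.51 in wild-type and -0.71 in heterozygous mice, where the medians over all genes were -0.001 and 0.00. Egr2 alone passed 2-fold in wild-type mice, against 0.992% of all genes at 2-fold or more lower. In heterozygous mice Egr1, Egr2 and Arc did, against 0.479%; with cyclic loess normalization 2 did, without Arc. Of the 7 in the brightest quartile, which leaves out Egr2, none passed in wild-type mice (0.129% of that quartile) and Egr1 and Arc did in heterozygotes (0.0775%). No gene of the 9 was higher by 2-fold, as 0.484% of all genes were in the wild-type and 1.29% in the heterozygous comparison. For the 7 genes Egr1, Egr2, Egr3, Egr4, Nr4a1, Npas4 and Arc, both sucrose arrays lay below both starch arrays, an order that 20.1% of all genes and 20.5% of the brightest quartile had. These counts describe genes picked with the diet difference in view and support nothing about diet on their own. In bulk tissue, fewer cells that make a transcript and less of it per cell cannot be told apart.

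**Figure D2:**
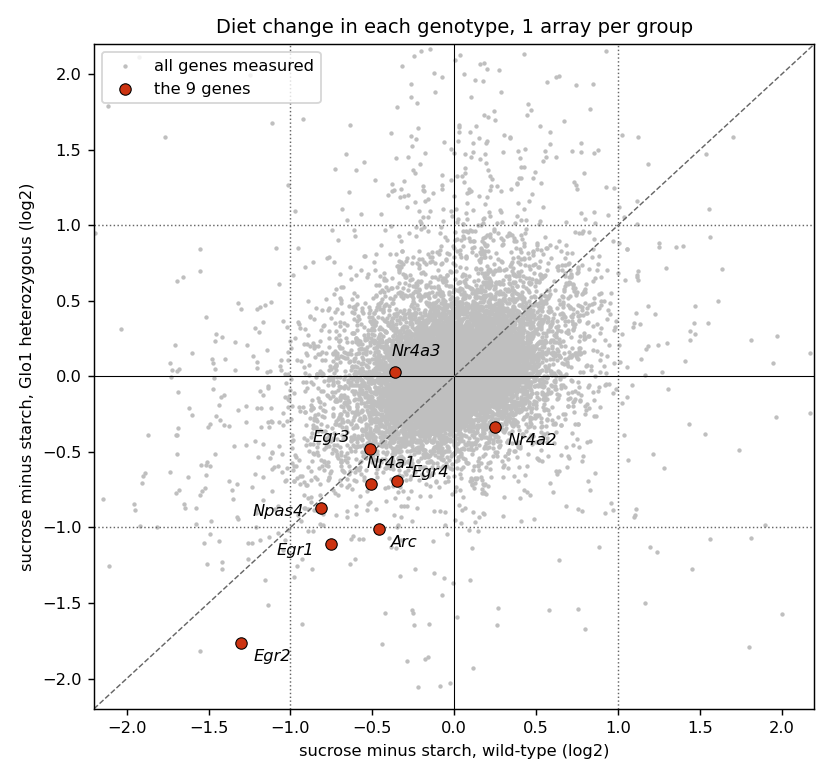
Change from starch to sucrose in wild-type mice (horizontal) against heterozygous mice (vertical), both in log2, with 1 array per group; grey points are all genes measured (95 lie beyond the axes), red points the 9 genes, dotted lines mark 2-fold and the dashed line equal change. Of the 9 genes, 7 lie in the lower left, with Egr2 farthest out at -1.30 and -1.76, while Nr4a2 lies at 0.25 and -0.34 and Nr4a3 at -0.36 and 0.03.

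Egr2, the zinc finger factor also known as Krox-20, had the largest diet difference of the 9. Its single probe (A_51_P173043, chromosome 10, 67004758 to 67004817 on build mm9) had levels of 1.72 on wild-type starch, 0.695 on wild-type sucrose, 2.15 on heterozygous starch and 0.633 on heterozygous sucrose. Both starch arrays were thus far above both sucrose arrays. The change was -1.30 in wild-type mice, leaving 40.5% of the starch level, and -1.76 in heterozygous mice, leaving 29.5%. Counted from the lowest change, this placed Egr2 at rank 113 of 20655 genes in wild-type mice and at rank 25 in heterozygotes. Under the 8 other ways of processing, the changes stayed between -1.32 and -1.23 and between -1.79 and -1.71.

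Egr1, the factor called Zif268 and the family member most used to map neuronal activity, was bright on every array. Its probe (A_51_P367866, chromosome 18, 35024395 to 35024454 on mm9) had levels of 16.7 on starch and 9.92 on sucrose in wild-type mice. The heterozygous levels were 17.4 and 8.05. The starch arrays nearly coincided, so the larger change in heterozygous mice (-1.11, against -0.75 in wild-type mice) came mostly from the lower value on sucrose.

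Egr4, which is expressed mainly in the nervous system, had smaller differences. Its probe (A_51_P270426, chromosome 6, 85461153 to 85461212) gave 6.85 and 5.37 in wild-type mice and 8.20 and 5.08 in heterozygous mice. The change was -0.35 in wild-type and -0.69 in heterozygous mice. Here, in contrast to Egr1, the sucrose arrays were close together and the starch arrays lay apart.

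Egr3, a family member that is induced by activity like Egr1, had 3 probes on chromosome 14. The brightest (A_55_P2787986, 70482361 to 70482420) had levels of 6.81 and 4.78 in wild-type mice and 7.39 and 5.29 in heterozygous mice, with changes of -0.51 and -0.48. A second probe (A_52_P440836, 70481979 to 70482038) gave -0.61 and -0.74 at levels from 1.44 to 2.42. The third (A_51_P437198, 70478827 to 70478886), which starts at base 278 of its transcript, was dim, at 0.0159 to 0.0262, and gave -0.32 and -0.54. All 3 probes were lower on sucrose in both genotypes. They disagreed on which genotype had the larger difference, since the brightest gave an interaction of 0.03 and the others -0.14 and -0.22.

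Npas4, whose transcription is tied closely to calcium influx through channels and NMDA receptors, was the gene whose diet difference depended least on genotype apart from Egr3. Its probe (A_55_P1975215, chromosome 19, 4984356 to 4984415) had levels of 2.18 and 1.24 in wild-type mice. In heterozygous mice they were 2.04 and 1.11. The sucrose level was 57.0% of the starch level in wild-type mice and 54.6% in heterozygotes. The interaction of -0.06 was below the 0.10 SD that repeated spots predict for it.

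Arc showed the opposite, a diet difference that was much larger in heterozygous mice. Its probe (A_51_P503494, chromosome 15, 74499597 to 74499656) had levels of 9.29 on wild-type starch, 6.74 on wild-type sucrose, 11.9 on heterozygous starch and 5.89 on heterozygous sucrose. The heterozygous arrays were the highest and the lowest of the 4, on either side of the wild-type pair. The change was -0.46 in wild-type mice and -1.01 in heterozygous mice, the latter just past 2-fold and short of it with cyclic loess normalization (-0.98).

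The 3 Nr4a genes did not move as a family. Nr4a1, the receptor also called Nur77, was among the brightest of the set. Its probe (A_51_P239654, chromosome 15, 101105071 to 101105130) had levels of 17.8 and 12.5 in wild-type and 19.9 and 12.1 in heterozygous mice, with changes of -0.51 and -0.71. Its sucrose arrays were nearly equal and both starch arrays lay above them, as for Egr4.

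Nr4a2 (Nurr1), which besides its response to activity marks some deep-layer cortical neurons and claustrum, was the only gene of the 9 that was higher on sucrose in wild-type mice. The brighter of its 2 probes on chromosome 2 (A_66_P118213, 56960000 to 56960059) had levels of 2.21 and 2.63 in wild-type and 2.75 and 2.18 in heterozygous mice. That is a change of 0.25 in wild-type and of -0.34 in heterozygous mice. The other probe (A_52_P494622, 56960699 to 56960758) had nearly the same level and gave 0.13 and -0.30, with the same signs. For both probes the wild-type sucrose and heterozygous starch arrays were the higher pair.

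Nr4a3 (Nor1) was much dimmer than its relatives, and its brightest probe exceeded only 36.5% of the measured probes. Its brightest probe (A_66_P103105, chromosome 4, 48064521 to 48064580) had levels of 0.114 and 0.0892 in wild-type and 0.0910 and 0.0926 in heterozygous mice, or 170 to 204 intensity units. The wild-type starch array stood above the other 3, which lay close together. The second probe (A_66_P132423, 48062977 to 48063036) gave diet changes of -0.29 and -0.05. The third (A_51_P128397, spanning 48080690 to 48083876), at 19.2 to 36.8 intensity units, gave -0.53 and 0.24. In wild-type mice all 3 probes were lower on sucrose, and in heterozygous mice they differed in sign. Probes of different family members share little sequence: over the 84 probe pairs of different genes, the longest identical run was 11 of 60 bases.

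**Figure D3:**
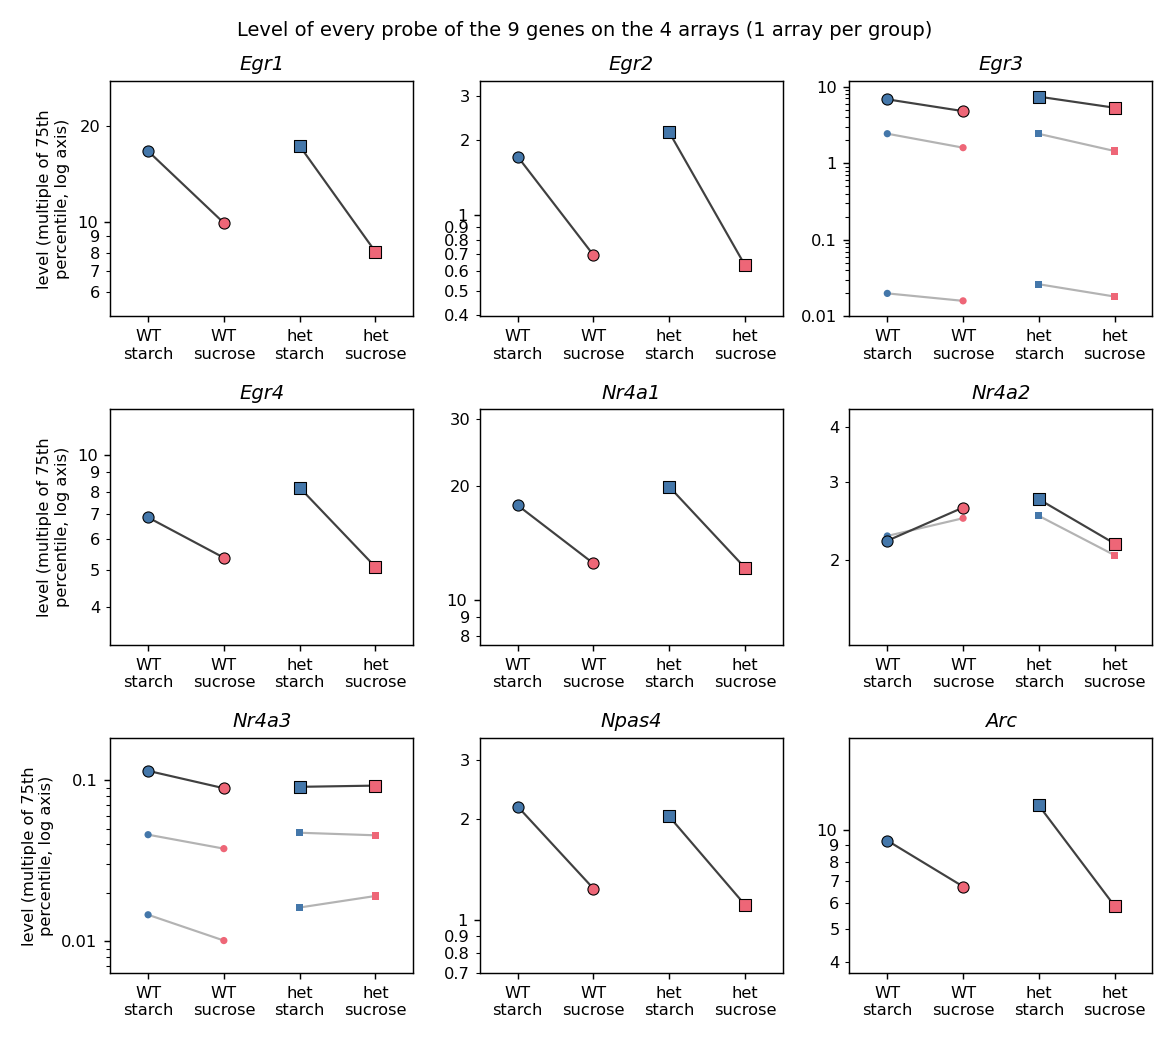
Level of each of the 14 probes (multiple of the array's 75th percentile, log axis) on the 4 arrays, 1 panel per gene; large outlined symbols are the gene's brightest probe, small symbols its other probes, circles wild-type (WT), squares heterozygous (het), blue starch and red sucrose. In 7 panels both red symbols of the brightest probe lie below both blue ones, which does not hold for Nr4a2 and Nr4a3.

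No gene of the 9 passed 2-fold between heterozygous and wild-type mice on either diet, where 0.344% of all genes were at 2-fold or more higher and 0.47% lower on starch, and 1.37% and 0.349% on sucrose. On starch 7 of 9 were higher in heterozygous mice, with a median of 0.16 and the largest values for Arc (0.35), Egr2 (0.32) and Nr4a2 (0.31). On sucrose 7 of 9 were lower, with a median of -0.13, from -0.30 for Egr1 to 0.15 for Egr3. With the mean over its 3 probes in place of the brightest, Nr4a3 stood at 0.42 on sucrose and at -0.05 on starch. Over all genes 54.0% were lower in heterozygous mice on starch and 54.9% on sucrose.

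The heterozygous starch array was the highest of the 4 for 7 of the 9 genes, and the heterozygous sucrose array was the lowest for 7. Both held for 6 genes, Egr1, Egr2, Egr4, Nr4a1, Nr4a2 and Arc, and for 5.86% of all genes. For the interaction, in which the wild-type diet change is subtracted from the heterozygous one, 7 of 9 were negative, with a median of -0.34, against 49.5% of all genes. Nr4a2 (-0.59), Arc (-0.55) and Egr2 (-0.46) were the most negative and Nr4a3 was the most positive (0.39). The diet and genotype comparisons share arrays pairwise, so the interaction restates the diet and genotype values and adds no independent measurement. Striatal projection neuron markers, of which 11 of 12 were measured, went the same way with larger values. On starch 10 of the 11 were higher in heterozygous mice (median 0.57), on sucrose all 11 were lower (median -1.17), and all 11 interactions were negative (median -1.29). The 6 blood genes went the other way in heterozygous mice, all lower on starch (median -0.43) and all higher on sucrose (0.26). Their interactions were all positive (median 0.74). All 7 choroid plexus markers were higher in heterozygous mice on sucrose (median 4.44), with positive interactions (median 4.12). The part of striatal tissue, blood and choroid plexus in the genotype and interaction values of the 9 genes was not tested. Between heterozygous mice on sucrose and wild-type mice on starch, which differ in both factors, all 9 genes were lower, against 52.7% of all genes, with a median of -0.55; Nr4a2 (-0.02) and Nr4a3 (-0.30) took the other sign under some of the other ways of processing. Egr1 (-1.05) and Egr2 (-1.44) passed 2-fold there, against 0.654% of all genes at 2-fold or more lower and 1.35% higher. The Egr1 call was lost with quantile (-0.95) and cyclic loess normalization (-0.96).

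Other genes of the activity response were taken from 4 fixed lists. Of 24 other immediate early genes 23 were measured, and 18 were lower on sucrose in wild-type and 21 in heterozygous mice, with medians of -0.26 and -0.46, where 50.1% and 49.9% of all genes were lower. For 17 of the 23 both sucrose arrays lay below both starch arrays, which held for 20.1% of all genes. Fosb, a partner of Jun proteins in the AP-1 factor, was lowest in the list by its mean diet change, at -0.86 and -1.03. Fos gave -0.64 and -1.24. Both passed 2-fold in heterozygous mice (0.479% of all genes did so downward), Fosb only narrowly, as it stood at -0.99 with normexp background correction. At the other end Jun, the dimer partner of Fos proteins, was higher on sucrose in both genotypes, at 0.20 and 0.60. Fos and Jun, which pair in 1 factor, thus differed in direction.

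Of 15 later-induced genes, among them secreted, synaptic and nuclear proteins, 12 were lower on sucrose in each genotype, against 50.1% and 49.9% of all genes. The medians were -0.31 and -0.38, and for 12 both sucrose arrays lay below both starch arrays (20.1% of all genes). Inhba, which encodes a subunit of activin, was the only one past 2-fold, at -1.26 and -1.21, against 0.992% and 0.479% of all genes. Sgk1, a kinase gene that responds to glucocorticoids, was the highest by mean diet change, at 0.38 and 0.20; Plk2 was higher in wild-type (0.48) and Nrn1 in heterozygous mice (0.21).

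Genes upstream lay on both sides of 0. The list of 19 held NMDA receptor and calcium channel subunits, the kinases that follow them, and the factors CREB, SRF, Elk and MEF2. Of these 6 were lower and 13 higher on sucrose in wild-type mice, and 7 lower and 12 higher in heterozygous mice, with medians of 0.09 and 0.01. Over all genes 50.1% and 49.9% were lower. Both sucrose arrays lay below both starch arrays for 3 of the 19, near the share of 20.1% over all genes. Creb1, the gene of the CRE-binding factor, had the lowest mean change (-0.08 and -0.44). Camk4, a nuclear kinase that activates CREB, had the highest (0.47 and 0.20). In wild-type mice alone Srf lay lowest (-0.42, with -0.003 in heterozygous mice) and Camk2a highest (0.54, with 0.10 in heterozygous mice). None passed 2-fold.

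Protein partners had medians near 0 with members on both sides. Of 12 listed genes 11 were measured, 3 lower and 8 higher on sucrose in wild-type mice and 7 lower and 4 higher in heterozygous mice. The medians were 0.03 and -0.05, and 50.1% and 49.9% of all genes were lower. By mean diet change Rxrb, a retinoid X receptor, was lowest (-0.30 and -0.05) and Camk2b, the kinase subunit whose protein binds Arc, highest (0.25 and 0.17). With the mean over probes, the heterozygous values of both took the other sign (0.05 for Rxrb and -0.04 for Camk2b). Within 1 genotype Rxrg, another retinoid X receptor, lay farther out, at 0.45 in wild-type mice and -0.51 in heterozygotes, and Cacng2, an AMPA receptor auxiliary subunit, gave 0.10 and -0.33. Nab2, a corepressor that binds Egr proteins and is itself an Egr target, gave 0.02 and -0.19, and Arnt2, the dimer partner of Npas4, gave 0.03 and -0.04; these last 4 genes were named after their values had been seen.

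**Figure D4:**
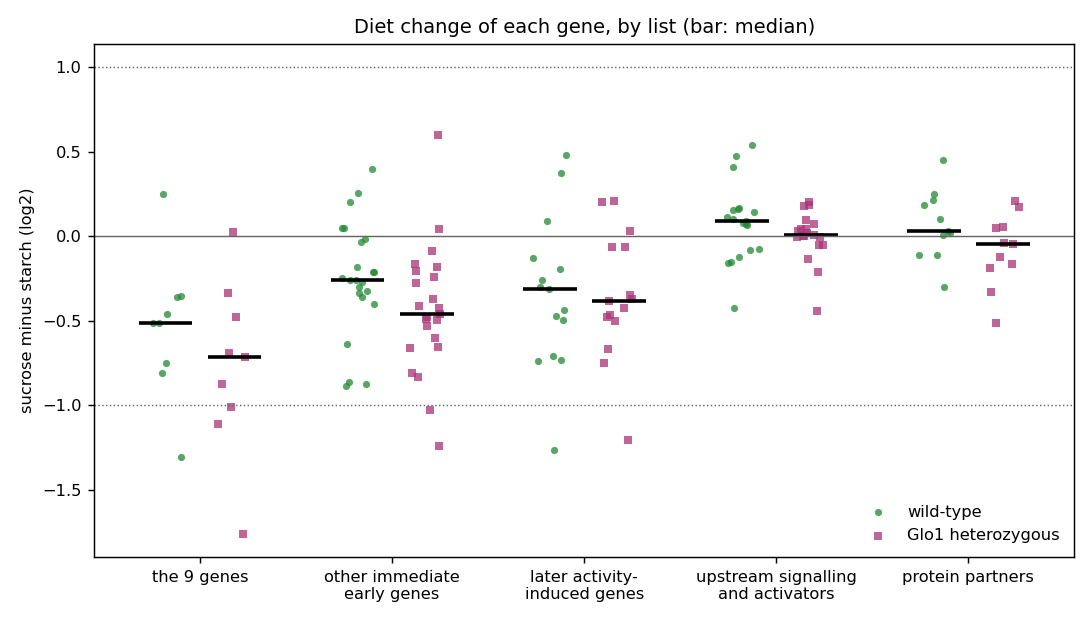
Change from starch to sucrose (log2) of each gene in wild-type (green circles) and heterozygous mice (purple squares), with list medians as black bars and 2-fold as dotted lines. Medians of the 9 genes are -0.51 and -0.71, those of other immediate early and later-induced genes lie between -0.26 and -0.46, and those of upstream genes and partners lie between -0.05 and 0.09.

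The genes with the most similar pattern were searched among 13025 others above the median signal, by the distance between log2 values over the 4 arrays after centring each gene on its mean. This likeness rests on 4 arrays only, and the reference profile is the median of the 9 genes (0.22, -0.29, 0.39 and -0.32 in the order wild-type starch, wild-type sucrose, heterozygous starch, heterozygous sucrose). Nearest was Per2, a circadian clock gene, at a distance of 0.10, with diet changes of -0.38 and -0.68. Then came Slc17a6, a vesicular glutamate transporter gene (-0.37 and -0.72), Mthfd2, a mitochondrial folate enzyme gene (-0.64 and -0.64), Pdlim3, Pcp4l1 and the stress-response gene Gadd45a. Abi3bp, the endoplasmic reticulum chaperone gene Hspa5 (-0.65 and -0.68), the immediate early kinase gene Sik1 (-0.36 and -0.81) and Thbd, at 0.14, completed the 10. Likeness depended on the probe for 3 of the 10: with the mean over a gene's probes, Per2 (-0.36) and Abi3bp (-0.49, against -0.76) had smaller diet changes in heterozygous mice, and Pdlim3 (-0.31, against -0.60) in wild-type mice. Of the 10, Sik1 was also in the list of other immediate early genes.

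Several cell type marker lists also differed between the arrays. The summed level of the 9 genes was 63.6, 43.9, 71.7 and 40.5 in the array order just given, so both sucrose arrays were low. Summed over the 6 blood genes it was 242, 121, 204 and 135, and all 6 were lower on sucrose in both genotypes (30.2% of all genes). The 6 endothelial markers ran 31.3, 23.0, 28.0 and 23.0, the 7 astrocyte markers 61.5, 54.6, 59.9 and 54.0, and the 7 oligodendrocyte markers 91.6, 82.7, 91.5 and 85.5, so these sums too were lower on both sucrose arrays. Of single endothelial genes 3 of 6 were lower on sucrose in wild-type mice and 4 of 6 in heterozygotes. The counts were 7 and 5 for the 7 astrocyte genes, and 7 and 4 for the 7 oligodendrocyte genes. The part of blood, vessels, astrocytes and oligodendrocytes in the diet difference of the 9 genes was not tested.

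Neuronal lists differed among themselves. Over the 6 pan-neuronal markers the sums were 252, 257, 250 and 243, or 96.5% to 102% of the wild-type starch value. The 9 excitatory markers were lowest on the wild-type starch array (33.1, 41.9, 36.1 and 38.1). The part of neuron content, in total or of excitatory neurons, in the diet difference of the 9 genes was not tested. The 6 inhibitory markers summed to 92.7, 94.8, 94.5 and 82.8. Of these 6, 4 had both sucrose arrays below both starch arrays, namely Gad1 (-0.40 and -0.44), Gad2, Slc32a1 and Vip, against 20.1% of all genes. The others were Pvalb, at 0.32 and 0.02, and Sst, which made up the largest part of the sum, at 0.21 and 0.00. The part of inhibitory neurons in the diet difference was not tested. The 11 striatal markers summed to 43.0, 67.7, 62.5 and 38.1, so that all 11 were higher on sucrose in wild-type and lower in heterozygous mice. For diet, Nr4a2 was the 1 gene of the 9 with that pair of signs (0.25 and -0.34). The part of striatal tissue in the diet difference of the 9 genes was not tested. The 7 choroid plexus markers summed to 68.9 on the heterozygous sucrose array and to 0.81 to 2.06 on the others. Microglia markers summed to 29.2 to 32.7. Of the 7, 5 were lower on sucrose in wild-type and 6 in heterozygous mice, against 50.1% and 49.9% of all genes. The part of choroid plexus and microglia in the diet difference was not tested.

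**Figure D5:**
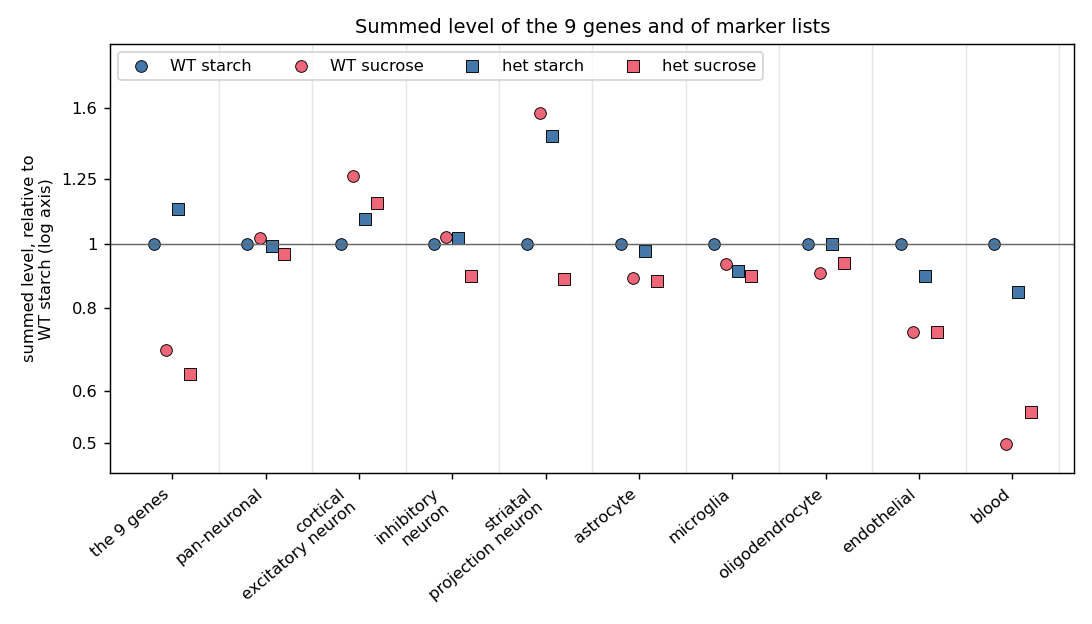
Summed level of the 9 genes and of 9 marker lists on each array, relative to the wild-type starch array (log axis; circles WT, squares het, blue starch, red sucrose). The 9 genes, blood, endothelial, astrocyte and oligodendrocyte genes have both sucrose arrays lowest, pan-neuronal genes stay near 1, and striatal genes are high on the wild-type sucrose and heterozygous starch arrays; the choroid plexus list is left out because of its range.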

How the data were processed

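Per the labels, prefrontal cortex RNA of 3 mice per group was pooled, and 200 ng was labelled with Cy3. The deposited intensity values came from Agilent Feature Extraction 11.5.1.1, per the submitters' processing notes. Per the file headers, spatial and multiplicative detrending and surrogates for low signals were switched on within each array. A series matrix deposited by the authors holds 1 ratio per spot, and each of its 62976 values per array equalled the processed signal over the 75th percentile stated in the scanner file (within a relative 1e-05).

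From the intensities, levels were computed as log2 of the processed signal after division by the 75th percentile of all spots on that array that are no controls, with numpy 2.4.6 and pandas 2.3.3. Control spots and spots with a non-uniformity or population outlier mark were left out, and spots of a probe were averaged. The 42094 probes well above background on all 4 arrays held 20655 gene names, each represented by its brightest probe. A change counted from 2-fold. Groups came from the sample titles. With 1 array per group no test was run, and the number of arrays limits the precision. The 8 alternatives used limma 3.58.1 (R 4.3.3) for normexp with an offset of 50, quantile and cyclic loess normalization, and otherwise median scaling, the mean over probes, no filter on dim probes, outlier spots kept and the authors' ratios. The computation was tested on simulated data.

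The 9 genes and all lists were chosen with earlier results of these data known. Genes named were the 9, Glo1, list members past 2-fold in a pairwise comparison, and the 10 nearest profiles. Also named were the highest and lowest of each activity list by mean diet change. Nab2, Arnt2, Rxrg, Cacng2, Plk2, Nrn1, Srf, Camk2a and the 6 inhibitory markers were added after their values were seen. Probe coordinates are those of the files (mm9), where exon annotation was not used here. Promoter windows are from RefSeq on GRCm38.p6.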

Additional observations from a re-analysis of the deposited data

Results flagged for a closer look

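In some cases a change had one sign in one group and the opposite sign in the other. None of these differences was tested, since each group had 1 array. The results were picked by a size above the spotting noise of single probes, which is no measure of error between pools of mice or of a list's median. The diet change of Nr4a2 was 0.25 in wild-type and -0.34 in heterozygous mice, an interaction of -0.59, and its genotype change was 0.31 on starch and -0.27 on sucrose, which is the same -0.59. The genotype changes of Arc were 0.35 and -0.20 (interaction -0.55), those of Egr2 0.32 and -0.13 (-0.46) and those of Egr4 0.26 and -0.08 (-0.34). The median of the 9 genes followed with 0.16 and -0.13, with a median interaction of -0.34. Among marker lists, cortical excitatory neuron genes had diet medians of 0.30 and -0.13 (median interaction -0.33), and striatal projection neuron genes of 0.81 and -0.80 (-1.29). By genotype, blood genes had medians of -0.43 on starch and 0.26 on sucrose (median interaction 0.74), and striatal genes of 0.57 and -1.17. Smaller changes of sign by genotype in other marker lists are not given.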

How the results depend on the processing

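The direction of the median change of the 9 genes was the same under all 8 alternatives in each of the 6 comparisons. The median moved with scaling in 2 comparisons: for genotype on starch, quantile normalization gave 0.26, and for heterozygous sucrose against wild-type starch it gave -0.42 and cyclic loess -0.45. In the latter comparison each left 1 gene past 2-fold in place of 2, without Egr1, and another alternative raised it to 3 through Npas4, whose value ranged from -1.01 to -0.94. Arc in heterozygous mice ranged from -1.04 to -0.98, short of 2-fold with cyclic loess only, and Fosb from -1.17 to -0.99, short of it with normexp only. The mean over probes moved Nr4a3 for genotype from -0.33 to -0.05 on starch and from 0.05 to 0.42 on sucrose. Single genes that changed sign under some alternative were Nr4a3 for diet in heterozygous mice, Nr4a1 for genotype on sucrose, Nr4a2 and Nr4a3 for both factors together, and Egr3 for the interaction. Under normexp and median scaling Nr4a3 joined the 7 genes with both sucrose arrays below both starch arrays, making 8. No paired analysis was possible because each group has 1 array. Signal over background limits Nr4a3 and the dimmest Egr3 probe most.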
